A study of Mus musculus with 40 samples.

Results

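The genes described here are 8 genes of cholesterol synthesis and its control, Srebf2, Hmgcs1, Sqle, Idi1, Fdps, Fdft1, Lss and Insig1, taken as named members out of 21911 protein-coding genes. Each was read in its mm10 gene span with 5 kb upstream, and all 8 were among the 15183 genes that had a peak in at least 3 of the 24 lists of H3K27ac ChIP-seq peaks. H3K27ac is an acetylation of histone H3 that marks active promoters and enhancers. The cells were primary preadipocytes from the inguinal white fat of C57BL/6 mice, either wild type (WT) or Hmgn1-/- and Hmgn2-/- (double knockout, DKO), and 3 libraries were made for each genotype before induction (day 0) and 3, 6 and 9 days into a change into brown-like adipocytes. The labels give differentiation medium with 0.5 µg/ml insulin, 5 µM dexamethasone, 0.5 mM IBMX, 1 nM T3 and 1 µM rosiglitazone for 4 days, then insulin and T3 alone for 4 days, for both genotypes. DKO mice lacked both nucleosome-binding proteins from the germline, so every cell of the culture lacked them before plating. The cultures were plated from digested fat of adult mice without a sort, and the libraries of a group are described as biological replicates. The sources used here do not say how many mice stood behind a library, and p-values measure the spread between these samples.

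Cholesterol is built from acetyl-CoA through the mevalonate pathway and then through squalene and lanosterol. The transcription factor SREBP2, encoded by Srebf2, is held in the endoplasmic reticulum when sterols are plentiful and moves to the nucleus when they run low, where it switches on nearly every enzyme of the pathway. INSIG1 is the anchor that retains it, and is itself a target. In fat cells much of the cholesterol sits in the membrane and in the lipid droplet, and the pathway is one of the lipid programmes that accompany differentiation.

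The lists held 47448 to 115923 peaks and covered 20.7 to 96.4 Mb per library. DKO day 0 replicate 2 stood apart, with a median peak width of 1076 bp against 313 to 376 bp in the other 23 libraries, and WT day 3 replicate 3 was the shortest WT list, with 68629 peaks. The 3 DKO day 6 lists covered 20.7, 35.4 and 36.3 Mb and the WT lists of that day 55.5, 56.4 and 60.4 Mb, so lengths under peaks at that day were compared both as measured and as a share of each library. Hmgn2 had a peak in 12 of 12 WT and 0 of 12 DKO libraries, while Hmgn1 had one in 12 of both. Of markers, 6 adipocyte genes summed to 7.57 to 23.4 kb under peaks at day 0 and to 49.4 to 84.4 kb at day 9, and 3 leukocyte genes to 15.4 to 38.8 kb at day 0 and 3.47 to 6.13 kb at day 9. The 5 preadipocyte or stromal genes summed to 27.9 to 48.2 kb at day 0 and 26.8 to 33.1 kb at day 9, the 3 endothelial genes to 4.62 to 13.3 kb and 1.49 to 4.03 kb, and Myod1, Myog and Epcam had no peak. By genotype, the adipocyte sum at day 6 was 73.4 to 78.4 kb for WT against 44.3 to 69.6 kb for DKO, and at day 9 it was 49.4 to 58.8 kb against 78.7 to 84.4 kb. The stromal sum at day 6 was 28.7 to 30.1 kb for WT against 8.07 to 12.9 kb for DKO, and none of these 3 pairs of groups overlapped. All these sums are in kb and were not scaled by library. At day 6, when the DKO lists were short, 59.6% of all single genes tested had DKO below WT without overlap and 0.0856% above. The endothelial and leukocyte sums of DKO at day 9 also lay above those of WT, at 3.12 to 4.03 kb against 1.49 to 2.64 kb and at 4.97 to 6.13 kb against 3.47 to 4.36 kb. At that day 29.3% of all single genes tested lay above without overlap and 2.08% below. At day 0, DKO lay above WT without overlap in 3 of these sums, beside 18.4% of all single genes tested above and 0.705% below. The DKO group of that day includes the wide-peak replicate 2. Adipocyte sums were 10.2 to 23.4 kb against 7.57 to 9.81 kb, and endothelial sums 6.07 to 13.3 kb against 4.62 to 5.75 kb. Leukocyte sums were 17.8 to 38.8 kb against 15.4 to 16.8 kb, and the stromal sums overlapped. These markers moved with the day and, in unscaled kb, with the genotype, and their part in the differences below was not tested. In bulk chromatin, more cells of a type and more acetylation per cell cannot be told apart.

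Every one of the 8 genes carried a region of peaks over its transcript start in 24 of 24 libraries. This start region held the peak with the lowest q-value of the gene window in all libraries for every gene except Fdft1, where it did in 17 of 24. Levels between genes are compared here only per length of window. The median share of the window under peaks over the 24 libraries was 21.2% for Insig1, 18.0% for Hmgcs1, 16.8% for Fdft1, 12.7% for Fdps, 12.2% for Idi1, 9.11% for Sqle, 4.95% for Srebf2 and 3.61% for Lss. The ranges of neighbours in this order overlapped throughout, for example 11.2% to 50.6% for Insig1 and 6.94% to 41.1% for Hmgcs1, and the order was not tested. For 182 of the 192 strongest peaks (8 genes in 24 libraries), the deposited fold and p gave a whole number of stacked reads at the summit within 0.01 on the −log10 p scale, from 7 to 113 reads with a median of 46. The lowest counts, down to 7 reads, were at Lss, so values of Lss rest on the least depth.

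The start regions were not filled evenly. Promoters in the RefSeq table (GRCm38.p6, 250 bases before to 50 bases after the start) were matched for 5 of the 8 genes, Srebf2, Hmgcs1, Idi1, Lss and Insig1. Sqle, Fdps and Fdft1 had no entry. The sequences below are those of the SREBP2 gene itself, of the HMG-CoA synthase gene and of the SREBP anchor, on the + strand, and they stop before the first exon of any protein-coding transcript. Capitals mark the core of the sterol regulatory element TCACNCCA, the box CCAAT bound by NF-Y, the SP1 box GGGCGG and the E-box motif CACGTG wherever a promoter held them, each on either strand, so that a box on the other strand stands in capitals as its reverse complement.
Srebf2 promoter, chr15:82147019-82147180: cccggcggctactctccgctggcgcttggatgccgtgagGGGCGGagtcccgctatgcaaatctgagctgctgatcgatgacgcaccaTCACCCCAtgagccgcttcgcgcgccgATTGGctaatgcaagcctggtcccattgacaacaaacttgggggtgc
Hmgcs1 promoter, chr13:119690101-119690350: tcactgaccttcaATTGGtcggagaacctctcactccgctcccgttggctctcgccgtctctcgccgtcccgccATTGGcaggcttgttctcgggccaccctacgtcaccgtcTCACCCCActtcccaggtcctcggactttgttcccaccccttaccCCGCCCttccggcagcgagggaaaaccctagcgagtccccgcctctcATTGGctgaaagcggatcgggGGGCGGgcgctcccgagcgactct
Insig1 promoter, chr5:28071162-28071362: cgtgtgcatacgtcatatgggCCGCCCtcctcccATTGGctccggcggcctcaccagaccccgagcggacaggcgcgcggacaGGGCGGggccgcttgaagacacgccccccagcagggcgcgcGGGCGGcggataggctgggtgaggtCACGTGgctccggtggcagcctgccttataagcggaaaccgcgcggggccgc
TCACNCCA stood at -162 in Srebf2 and at -137 in Hmgcs1, counted from the RefSeq start, and in 4.28% of the promoters of 27025 genes. CCAAT was found in all 5 matched promoters and in 37.9% of all, GGGCGG in all 5 and in 35.9% of all, and CACGTG only in Insig1 among the 5, at -101, and in 7.24% of all. No match of one motif in the 5 promoters overlapped a match of another, and a match is a description of letters.

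Both sterol element cores and the E-box lay under a peak in 1 of 24 libraries. The base in the middle of the 250 bases before the RefSeq start lay under a peak in 1 of 24 libraries in Srebf2, Hmgcs1, Lss and Insig1 and in 3 of 24 in Idi1, and DKO day 0 replicate 2 was among those libraries at every one of the 5 genes. Peaks stood within 1 kb on both sides of that base in 24 libraries for Srebf2, Hmgcs1 and Insig1, in 23 for Idi1 and in 21 for Lss. Among 6972 promoters flanked in this way in at least 20 libraries, 30.6% had a peak over the base in at most 1 library, and the median was 15 libraries. At Idi1 the CCAAT boxes at -45 and -14 lay under a peak in 7 and 20 libraries, and at the other 4 genes every CCAAT box did in 1. In DKO day 0 replicate 2, 96.5% of the 6972 promoters had a peak over that base, against a median of 52.6% over the libraries.

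The length under peaks, in kb per gene window, was compared first over time. Hmgcs1, Fdft1 and Insig1 had more of their windows under peaks at day 9 than at day 0 in both genotypes. Over all genes tested, 16.4% were higher and 14.8% lower at day 9, so 3 of 8 members higher and 0 of 8 lower stands beside that background. All 3 calls ended when only the 20000 strongest peaks of each library were kept, where Hmgcs1 differed by 1.09 kb (adjusted p = 0.249), Fdft1 by 3.72 kb (0.0988) and Insig1 by 2.16 kb (0.0765, all by exact permutation). With 250 bp either side of each summit, Fdft1 (adjusted p = 0.0961) and Insig1 (0.358, exact permutation) were lost as well. All 8 members had a positive difference, with a median of 0.45 kb against 0.04 kb over all genes. The test was an exact permutation of the day within genotype (400 relabellings, smallest p 0.005), two-sided, with Benjamini-Hochberg adjustment over the 15183 genes.

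**Figure D1:**
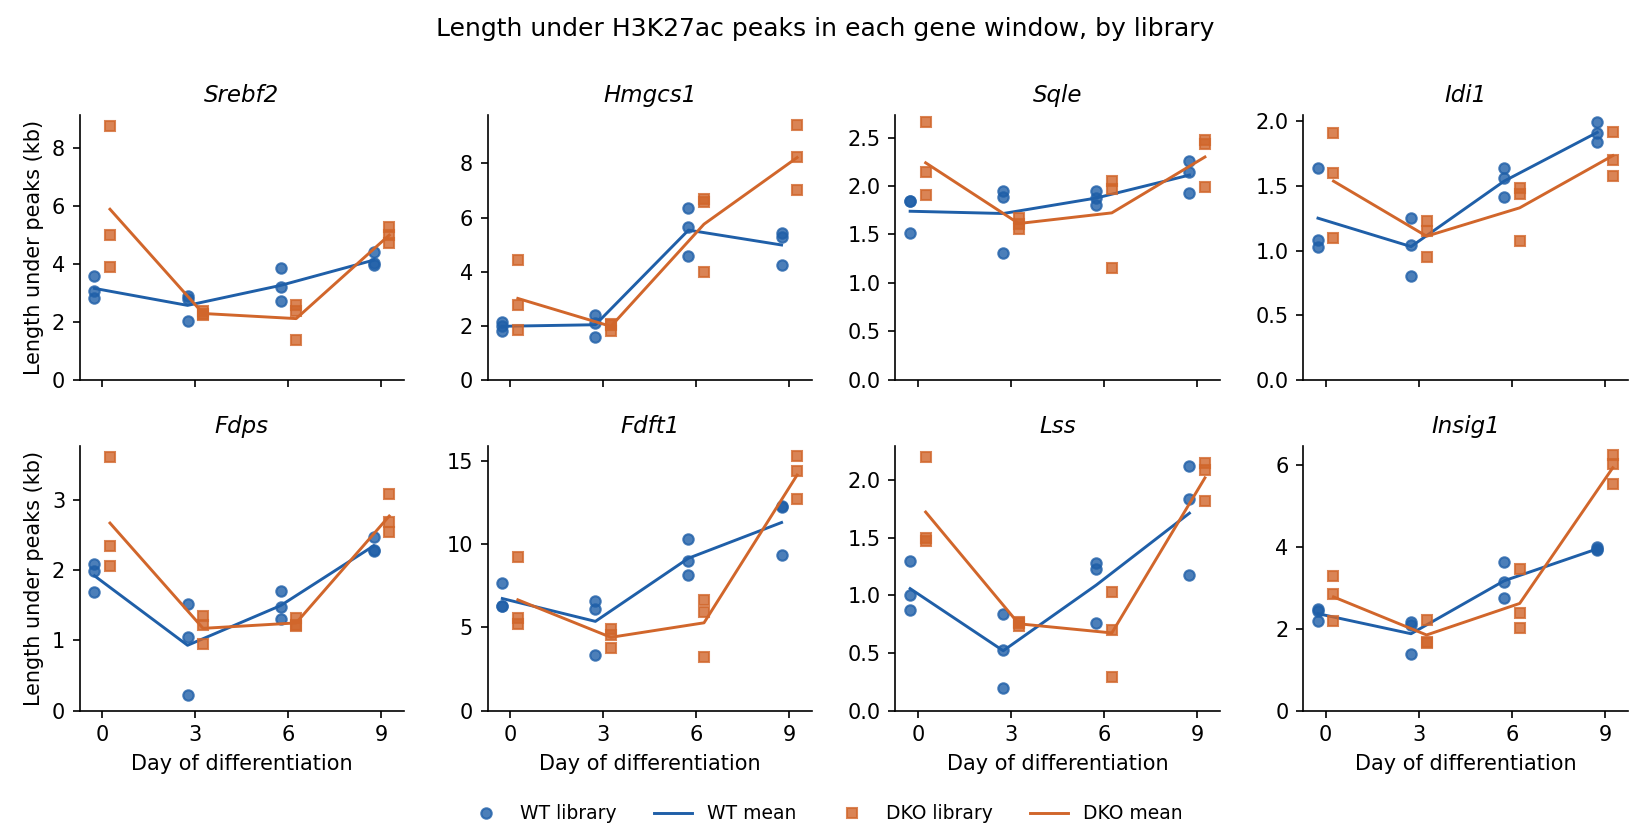
Length under H3K27ac peaks (kb, y axis from 0, scale set per gene) in each of the 8 gene windows against the day of differentiation, with a point for each library and a line through the mean of 3 (WT circles, DKO squares, set slightly apart). Hmgcs1, Fdft1 and Insig1 are highest in DKO at day 9, and DKO day 0 replicate 2 is the top day 0 point in every panel.

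Hmgcs1 encodes the synthase that makes HMG-CoA, at the entry to the mevalonate pathway (chr13:119690379-119708260, + strand). Its length under peaks was 1.81, 1.99 and 2.14 kb for WT and 1.84, 4.44 and 2.75 kb for DKO at day 0, and 4.24, 5.44 and 5.28 kb for WT and 9.41, 8.24 and 7.01 kb for DKO at day 9. The 6 day 9 libraries were all above the day 0 libraries of their genotype. The mean went from 1.98 ± 0.163 to 4.99 ± 0.653 kb for WT and from 3.01 ± 1.32 to 8.22 ± 1.2 kb for DKO (SD, n = 3), a difference of 4.11 kb averaged over genotypes (exact permutation p = 0.005, adjusted p = 0.0203). At day 3 the libraries still read 2.11, 2.41 and 1.59 kb for WT and 1.82, 2.03 and 2.08 kb for DKO. At day 6 they read 5.67, 4.58 and 6.36 kb for WT and 6.57, 6.70 and 4.00 kb for DKO. The groups of day 3 and day 6 did not overlap in either genotype, and the step between them was 3.64 kb (exact permutation p = 0.005, adjusted p = 0.0569). This misses the threshold, but 0.005 is the smallest p of the test, so no gene could pass in this step.

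The added length lay both at the start and in the body of the gene, and in DKO mainly in the body. Outside the start region, Hmgcs1 had 0 kb under peaks in the 3 WT libraries of day 0 and 0, 0.596 and 0.226 kb in DKO. At day 9 the same measure was 0.941, 2.02 and 1.86 kb for WT and 6.07, 5.03 and 3.91 kb for DKO. The start region itself went from 1.81, 1.99 and 2.14 kb to 3.30, 3.43 and 3.42 kb in WT, and from 1.84, 3.85 and 2.52 kb to 3.33, 3.22 and 3.10 kb in DKO. In all, 15 merged regions touched the window. One of them, an intronic region at chr13:119693119-119694316, from 2.67 to 3.87 kb after the start, was called in 0 of 12 libraries of days 0 and 3, in 3 of 3 of either genotype at day 6, and in 2 of 3 WT and 3 of 3 DKO libraries at day 9. The region at chr13:119706981-119715653 runs past the end of the gene, and only its part inside the window was counted. Gm48342 is antisense to Hmgcs1, and ChIP reads carry no transcript strand.

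Fdft1 encodes squalene synthase, the first step committed to sterols (chr14:63145150-63179578, - strand). It read 6.27, 6.26 and 7.64 kb for WT and 5.53, 9.23 and 5.18 kb for DKO at day 0. At day 9 it read 9.36, 12.3 and 12.2 kb for WT and 15.3, 14.4 and 12.7 kb for DKO. Day 9 lay above day 0 in both genotypes without overlap, and the difference was 6.02 kb (exact permutation p = 0.005, adjusted p = 0.0203). In this gene the start region held 26.2% of the length under peaks over the 24 libraries. A region from 24.6 to 31.0 kb after the start, at chr14:63146751-63153232 over coding exons and UTR near the 3′ end, was called in 24 of 24 libraries, and its mean fold was 7.63 in WT and 8.68 in DKO at day 0. By day 6 the WT and DKO means were 18.2 and 12.5, and by day 9 they were 14.0 and 17.6. At day 6 and day 9 it held the strongest peak of the gene in 7 of the 12 libraries. Ctsb and Neil2 overlap the ends of the window, so peaks there cannot be given to 1 gene. The same limit holds where protein-coding Ccdc134 overlaps the Srebf2 window and protein-coding Gm43738 the Fdps window.

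Insig1 encodes the sterol-sensing anchor of the SREBP complex (chr5:28071363-28078662, + strand). It read 2.19, 2.44 and 2.47 kb for WT and 2.20, 3.29 and 2.84 kb for DKO at day 0, and 3.99, 3.94 and 3.92 kb for WT and 6.03, 5.53 and 6.23 kb for DKO at day 9. All day 9 libraries stood above all day 0 libraries, and the difference was 2.37 kb (exact permutation p = 0.005, adjusted p = 0.0203). Here the start region held 98.9% of the length, and its merged extent reached from 1.65 kb before to 5.03 kb after the start. Its highest fold over the local background was 16.0, 10.4 and 19.4 in WT and 14.8, 11.2 and 21.1 in DKO at day 0, and 25.6, 23.5 and 26.8 in WT and 26.5, 24.9 and 27.6 in DKO at day 9. Both the height and the extent of the acetylated start of Insig1 were thus greater in every day 9 library than in every day 0 library.

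The other enzymes had smaller day 9 differences that did not pass the test. Idi1, the isomerase of isopentenyl diphosphate, differed by 0.43 kb (exact permutation p = 0.05, adjusted p = 0.121), and Lss, which closes the sterol rings to lanosterol, by 0.47 kb (p = 0.05 by the same exact permutation test, adjusted p = 0.121). Fdps, which makes farnesyl diphosphate, differed by 0.26 kb, Sqle, the squalene epoxidase, by 0.22 kb, and Srebf2 by 0.04 kb, with adjusted p-values from the permutation test of 0.511, 0.333 and 1. Without DKO day 0 replicate 2, Idi1, Fdps and Lss also rose, by 0.52, 0.50 and 0.59 kb (adjusted p of 0.0258, 0.0258 and 0.0356 by exact permutation), which makes 6 of 8 members against 30.9% of all genes higher, and Srebf2 differed by 0.76 kb (adjusted p = 0.0525, exact permutation). As a share of the length under peaks in each library, Hmgcs1, Fdft1, Insig1 and Idi1 were higher at day 9, 4 of 8 members, where 22.4% of all genes were higher and 21.9% lower.

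The strength of the strongest peak was also read as a rank, the percent of the peaks of a library with a lower −log10 q. Lss and Insig1 passed from day 0 to day 9 in this percent, 2 of 8 members higher with 0 lower, where 13.9% of all genes were higher and 8.83% lower. The percent depends on how many weak peaks a list holds. With every list cut to the 47448 strongest peaks, the length of the shortest, 0 of 8 members passed by exact permutation, beside 6.82% of all genes higher and 7.84% lower. Lss then differed by 13.4 points (adjusted p = 0.133) and Insig1 by 5.88 (adjusted p = 0.0531, both exact permutation). The rank of Lss was 73.7%, 79.8% and 65.6% in WT and 79.3%, 80.7% and 83.1% in DKO at day 0, and 80.3%, 88.9% and 80.4% in WT and 87.2%, 85.7% and 88.8% in DKO at day 9, a difference of 8.17 percentage points (exact permutation p = 0.005, adjusted p = 0.0278). In each genotype the day 9 ranks of Lss lay above the day 0 ranks. Insig1 differed by 3.36 percentage points and stood at between 98.0% and 99.3% in the 6 day 9 libraries (adjusted p = 0.0278 by exact permutation). Hmgcs1 and Idi1 differed by 3.21 and 3.96 points, each with exact permutation p = 0.015 and adjusted p = 0.0581.

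The course between day 0 and day 9 was not steady. From day 0 to day 3 all 8 members had a negative difference, and Srebf2, Fdps, Lss and Insig1 fell, 4 of 8, where 25.2% of all genes fell and 1.19% rose. Fdps read 2.08, 1.98 and 1.69 kb for WT and 2.34, 3.60 and 2.06 kb for DKO at day 0, and 1.05, 1.51 and 0.225 kb for WT and 1.22, 0.948 and 1.34 kb for DKO at day 3. It fell by 1.24 kb with no overlap in either genotype (exact permutation p = 0.005, adjusted p = 0.0234). Lss fell by 0.756 kb (adjusted p = 0.0234), Srebf2 fell by 2.09 kb and Insig1 fell by 0.710 kb (both adjusted p = 0.0379, exact permutation). Leaving out WT day 3 replicate 3 ended the calls of Srebf2 and Insig1 (both adjusted p = 0.0713 by exact permutation), and leaving out DKO day 0 replicate 2 that of Insig1 (adjusted p = 0.0746, exact permutation), while Srebf2 then fell by 1.37 kb (adjusted p = 0.0395, exact permutation). As a share of each library, the day 3 differences were negative only for Srebf2, Fdps and Lss, at -11.5, -12.6 and -7.21 bp per Mb, with adjusted p of 0.109, 0.101 and 0.0783 by exact permutation, and Hmgcs1 was 10.3 bp per Mb higher (adjusted p = 0.0206, exact permutation), 1 of 8 members beside 18.8% of all genes higher and 15.3% lower.

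No gene of the 15183 passed from day 3 to day 6 or from day 6 to day 9, that is 0% higher and 0% lower in either step by the exact permutation test. Genes at the smallest p of that test, 0.005, had adjusted p of 0.0569 and 0.052 in these steps. No gene could therefore pass, and the 0% says nothing of the genes. At an unadjusted p under 0.05, 4 of 8 members were higher at day 6 than at day 3, where 19.2% of all genes were. In the same way 7 of 8 members were higher at day 9 than at day 6, where 30.7% of all genes were, and 0 of 8 were lower in either step. The day 6 to day 9 differences were 1.88 kb for Srebf2, 0.39 kb for Idi1 and 2.05 kb for Insig1, and Fdps was the fourth gene at the smallest p, each with exact permutation p = 0.005 and adjusted p = 0.052. As a share of each library, the mean of the 8 genes together went from 471 to 586 bp per Mb in WT. In DKO, whose day 6 lists were short, it went from 676 to 652 bp per Mb. Idi1 took 24.9, 28.1 and 27.1 bp per Mb in WT at day 6 and 38.1, 32.0 and 33.9 at day 9. In DKO it took 40.7, 40.6 and 51.5 and then 27.9, 26.7 and 25.8 bp per Mb. The step was not tested on this scale.

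The second question was whether cells without HMGN1 and HMGN2 differed at these genes. Over the 4 days, 0 of 8 members differed between genotypes in length under peaks by an exact permutation of the genotype within each day (160000 relabellings, smallest p 1.25e-05). Of all genes, 0.0263% were higher and 0.125% lower in DKO. At an unadjusted p under 0.05, 1 member was higher, where 3.95% of all genes were. It was Hmgcs1, 1.11 kb higher in DKO on average (exact permutation p = 0.0255, adjusted p = 0.406). The median of the members was 0.245 kb and that of all genes -0.007 kb. For the rank, 0 of 8 members differed, with 0.171% of all genes higher and 3.33% lower in DKO, and Srebf2 had the lowest p, at -5.03 percentage points (exact permutation p = 0.013, adjusted p = 0.122).

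At single days 3 libraries against 3 cannot give an exact p under 0.1, so the groups are described by whether they overlap. At day 9, DKO lay above WT without overlap at Srebf2, Hmgcs1, Fdps, Fdft1 and Insig1, 5 of 8 members, and below at none, where 29.3% of all genes lay above and 2.08% below. With the 20000 strongest peaks alone, 0 members lay above and 2, Sqle and Idi1, lay below, beside 19.5% and 3.36% of all genes, and the median ratio of DKO to WT was 0.928 over the members and 1.1 over all genes. Hmgcs1 read 4.24, 5.44 and 5.28 kb for WT and 9.41, 8.24 and 7.01 kb for DKO, 64.8% more on average. Insig1 read 3.92 to 3.99 kb for WT and 5.53 to 6.23 kb for DKO, a ratio of 1.5 of the means. Srebf2 was at 3.95, 4.42 and 4.03 kb for WT and 5.27, 4.99 and 4.73 kb for DKO, and Fdps at 2.29, 2.47 and 2.27 kb for WT and 3.08, 2.68 and 2.54 kb for DKO. DKO day 9 lists were also longer as a whole, at 61.2, 63.5 and 68.8 Mb against 48.2, 58.6 and 59.6 Mb in WT, without overlap.

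At day 6 the direction was the other way in kb. Fdft1 read 8.14, 10.3 and 8.99 kb for WT and 5.90, 6.66 and 3.24 kb for DKO, and Srebf2 read 3.19, 2.72 and 3.87 kb for WT and 2.38, 2.58 and 1.38 kb for DKO. These were the 2 members with DKO below WT without overlap, and none was above, where 59.6% of all genes lay below and 0.0856% above. At day 0, DKO was above at Srebf2, Sqle and Lss, 3 of 8, and below at none, beside 18.4% and 0.705% of all genes. At day 3 no member was without overlap, beside 0.856% above and 10.8% below over all genes. Without WT day 3 replicate 3, DKO lay below at 4 of 8 members and above at none, beside 51.6% and 0.916% of all genes.

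The order at day 6 depended on the scale. Divided by the length under peaks in each library, the 8 genes together took 451, 484 and 478 bp per Mb in WT and 673, 662 and 693 bp per Mb in DKO at day 6, and 598, 586 and 574 bp per Mb in WT and 655, 663 and 638 bp per Mb in DKO at day 9. DKO was above WT without overlap on both days on this scale, whereas the summed length in kb was lower in DKO at day 6, at 23.8, 24 and 14.3 kb against 25.5, 26.9 and 28.9 kb. At day 3 the shares were 371, 355 and 350 bp per Mb in WT and 498, 369 and 459 bp per Mb in DKO, which overlapped. At day 0 they were 414, 376 and 412 bp per Mb in WT and 426, 375 and 398 bp per Mb in DKO.

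**Figure D2:**
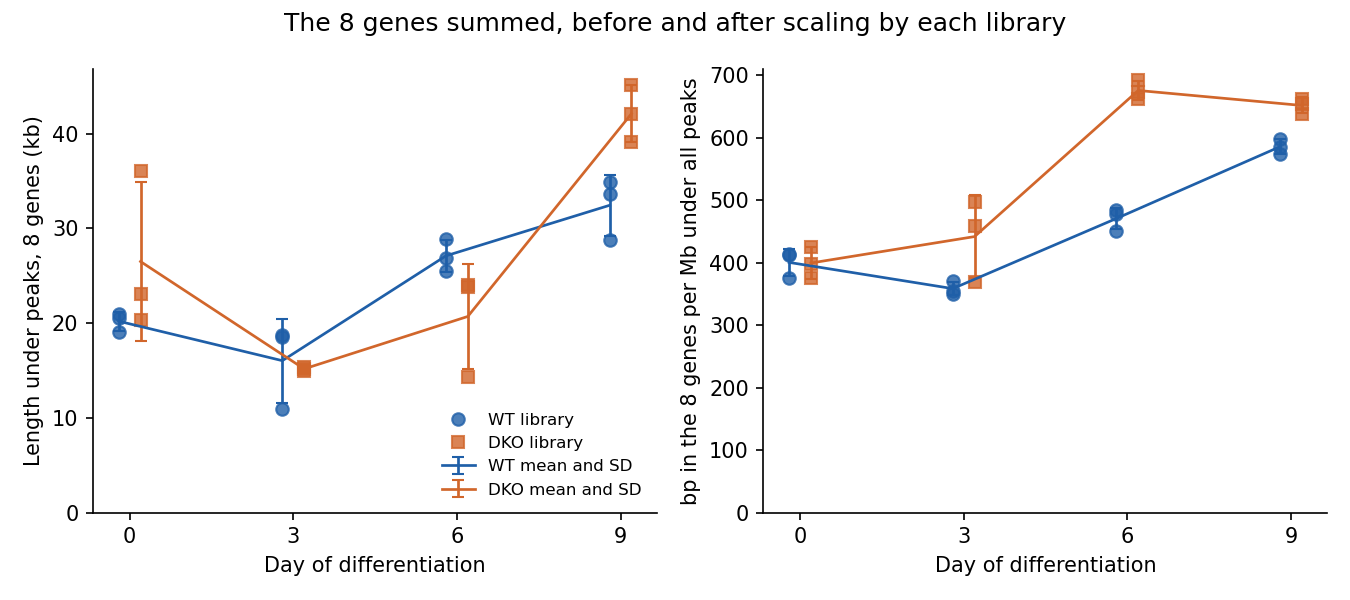
The 8 genes summed, by day, as kb under peaks (left) and as bp per Mb under all peaks of the library (right), both axes from 0, with points for libraries and lines and bars for the mean and SD of 3. On the right the DKO libraries of day 6 sit between 662 and 693 bp per Mb, above the WT libraries at 451 to 484.

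By single genes on the share scale, 6 of 8 members had DKO above WT without overlap at day 6 and 0 below, where 37.8% of all genes were above and 14.4% below. They were Srebf2, Hmgcs1, Sqle, Idi1, Fdps and Insig1. Hmgcs1 took 101, 82.4 and 105 bp per Mb in WT and 186, 184 and 193 bp per Mb in DKO at day 6. At day 9 DKO was above at Hmgcs1, Fdft1 and Insig1 and below at Idi1, beside 13.4% above and 13.5% below over all genes. Hmgcs1 then took 88.0, 91.3 and 90.1 bp per Mb in WT and 137, 130 and 115 bp per Mb in DKO, so its DKO libraries were the higher ones on both days. Over the 4 days Srebf2, Hmgcs1 and Insig1 passed on this scale, 3 of 8 members higher in DKO with 0 lower, where 9.19% of all genes were higher and 5.70% lower. The differences were 36.2 bp per Mb for Hmgcs1 (exact permutation p = 0.0001, adjusted p = 0.00401), 14.9 for Insig1 (adjusted p = 0.0396, exact permutation) and 11.6 for Srebf2 (adjusted p = 0.0233, exact permutation). The DKO day 6 lists were the short ones given above, and the part of list length in these shares was not tested.

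Over the 4 days, the highest fold among the peaks of the Srebf2 window gave the opposite order to its share of each library. Its highest fold was 15.6, 13.7 and 15.2 in WT and 12.8, 11.7 and 12.1 in DKO at day 0, 14.3, 13.6 and 13.6 against 10.2, 13.3 and 10.9 at day 3, 14.3, 17.3 and 18.4 against 13.5, 12.5 and 6.51 at day 6, and 12.4, 18.6 and 17.2 against 15.5, 12.9 and 16.5 at day 9. DKO was below WT without overlap at days 0, 3 and 6, and the groups overlapped at day 9. By this measure 1 of 8 members lay below before induction and 1, Lss, above, beside 8.31% and 11.3% of all genes. On day 3, 4 lay below, with Hmgcs1, Fdft1 and Insig1 beside Srebf2, and Fdps lay above, where 23.9% of all genes lay below and 3.14% above. At day 6, Srebf2, Fdps and Fdft1 lay below and none above, beside 45.2% and 0.724%, and at day 9 no member was without overlap, beside 7.19% below and 21% above. Over the 4 days Srebf2 fell by 0.33 on the log2 scale in DKO (exact permutation p = 0.002, adjusted p = 0.0428), 1 of 8 members lower and 0 higher, where 5.35% of all genes were lower and 0.29% higher. The call ended without DKO day 0 replicate 2 (adjusted p = 0.0612) and without WT day 3 replicate 3 (adjusted p = 0.0503, both by exact permutation), at differences of -0.33 and -0.34. Hmgcs1 differed by -0.32 (exact permutation p = 0.00604, adjusted p = 0.0702), with negative values at days 0, 3 and 6 and 0.07 at day 9. The median of the members was -0.10 and that of all genes -0.15, so the sign was that of most genes.

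**Figure D3:**
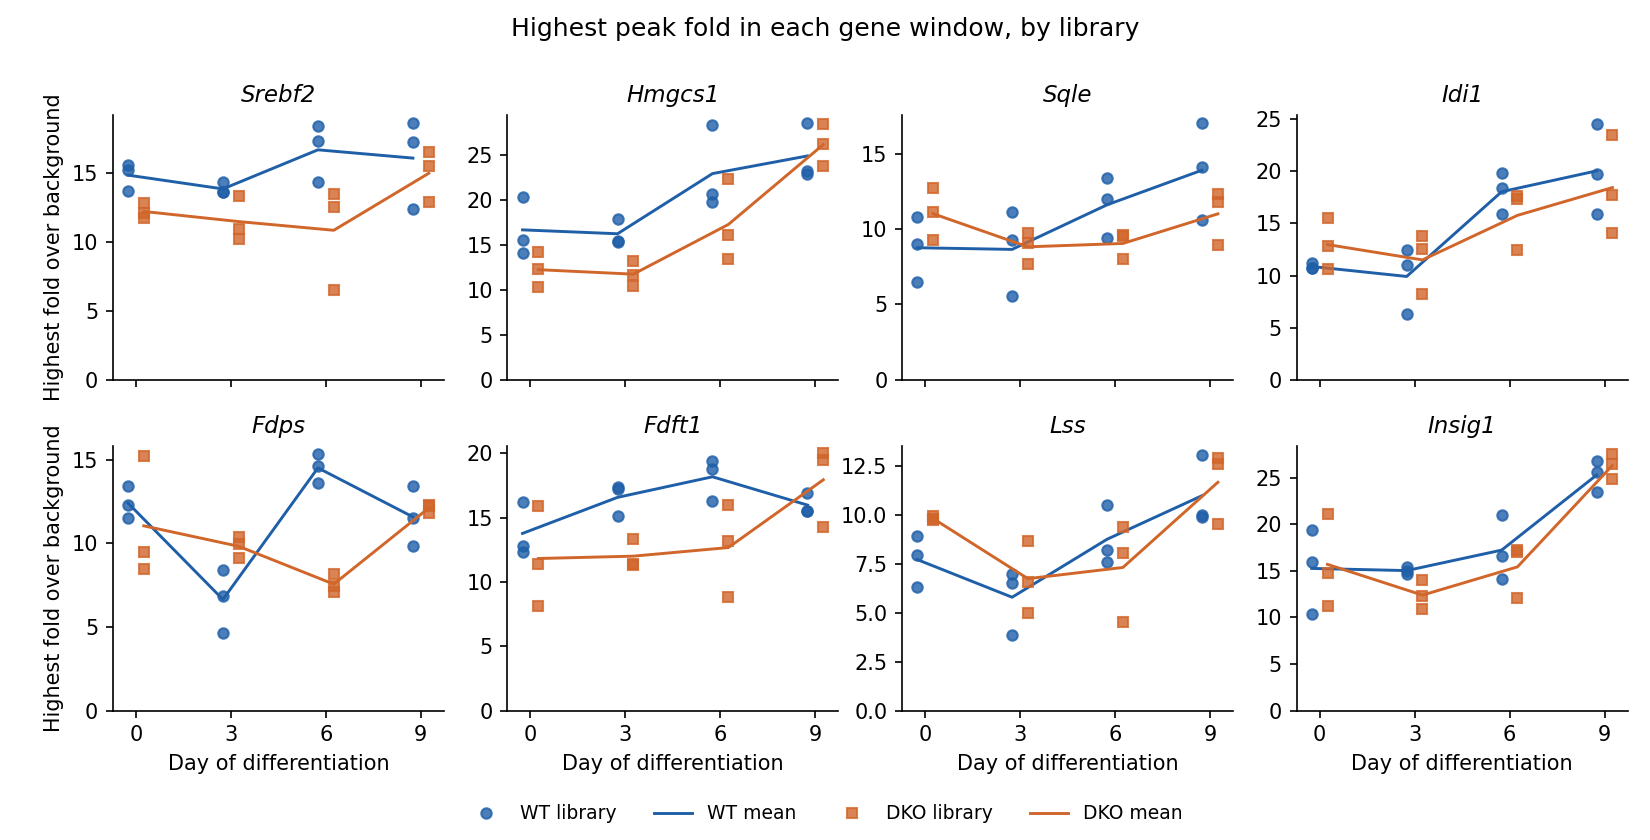
Highest fold over the local background among the peaks of each gene window (y axis from 0, scale set per gene) against the day, with a point for each library and lines through the means of 3. In Srebf2 the DKO points lie below the WT points at days 0, 3 and 6, and Insig1 reaches 23.5 to 27.6 in all 6 libraries of day 9.

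The genotype difference in length under peaks changed with the day at 1 of 8 members, Srebf2, where the difference of 17.1% of all genes did. Its DKO minus WT differences were 2.73 kb at day 0, -0.28 kb at day 3, -1.14 kb at day 6 and 0.86 kb at day 9 (exact permutation p = 0.00374, adjusted p = 0.037). The day 0 value rests largely on DKO day 0 replicate 2, at 8.78 kb against 3.89 and 5.00 kb in the other DKO libraries, and the call held without it (adjusted p = 0.0247, exact permutation). As a share of each library the change did not pass (adjusted p = 0.40, exact permutation).

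Merged over the 24 lists, 69 regions touched the 8 windows, 21 at Srebf2, 16 at Fdft1, 15 at Hmgcs1, 7 at Lss, 4 at Fdps and 2 each at Sqle, Idi1 and Insig1. Of these, 10 were called in all 24 libraries and 21 in 1 library. A call counts the whole merged region, also its part beyond a window. The Hmgcs1 region at chr13:119706981-119715653 is among the 10, but had 0 kb inside the window in WT at day 0. At day 9, 4 regions were called in 3 of 3 DKO and 0 of 3 WT libraries, 1 each at Srebf2, Hmgcs1, Fdft1 and Insig1, and 0 the other way. Of 169358 regions in the genome, 1.46% were DKO only and 0.386% WT only at that day. At days 0, 3 and 6 no region of the 69 separated the genotypes in this way. Before induction 0.745% of all regions were DKO only and 0.594% WT only. The shares were 0.098% and 0.9% on day 3, and on day 6 they were 0.039% and 4.55%. The Hmgcs1 region (chr13:119703301-119703991, over a coding exon), the Fdft1 region (chr14:63156966-63157416, intron) and the Insig1 region (chr5:28076669-28077030, coding exon and UTR) were called in no other group, with mean folds of 4.76, 5.04 and 4.67. The Srebf2 region (chr15:82165947-82166594, intron) was also called in 1 DKO library of day 0 and 1 of day 3, and its mean fold at day 9 was 4.18.

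**Figure D4:**
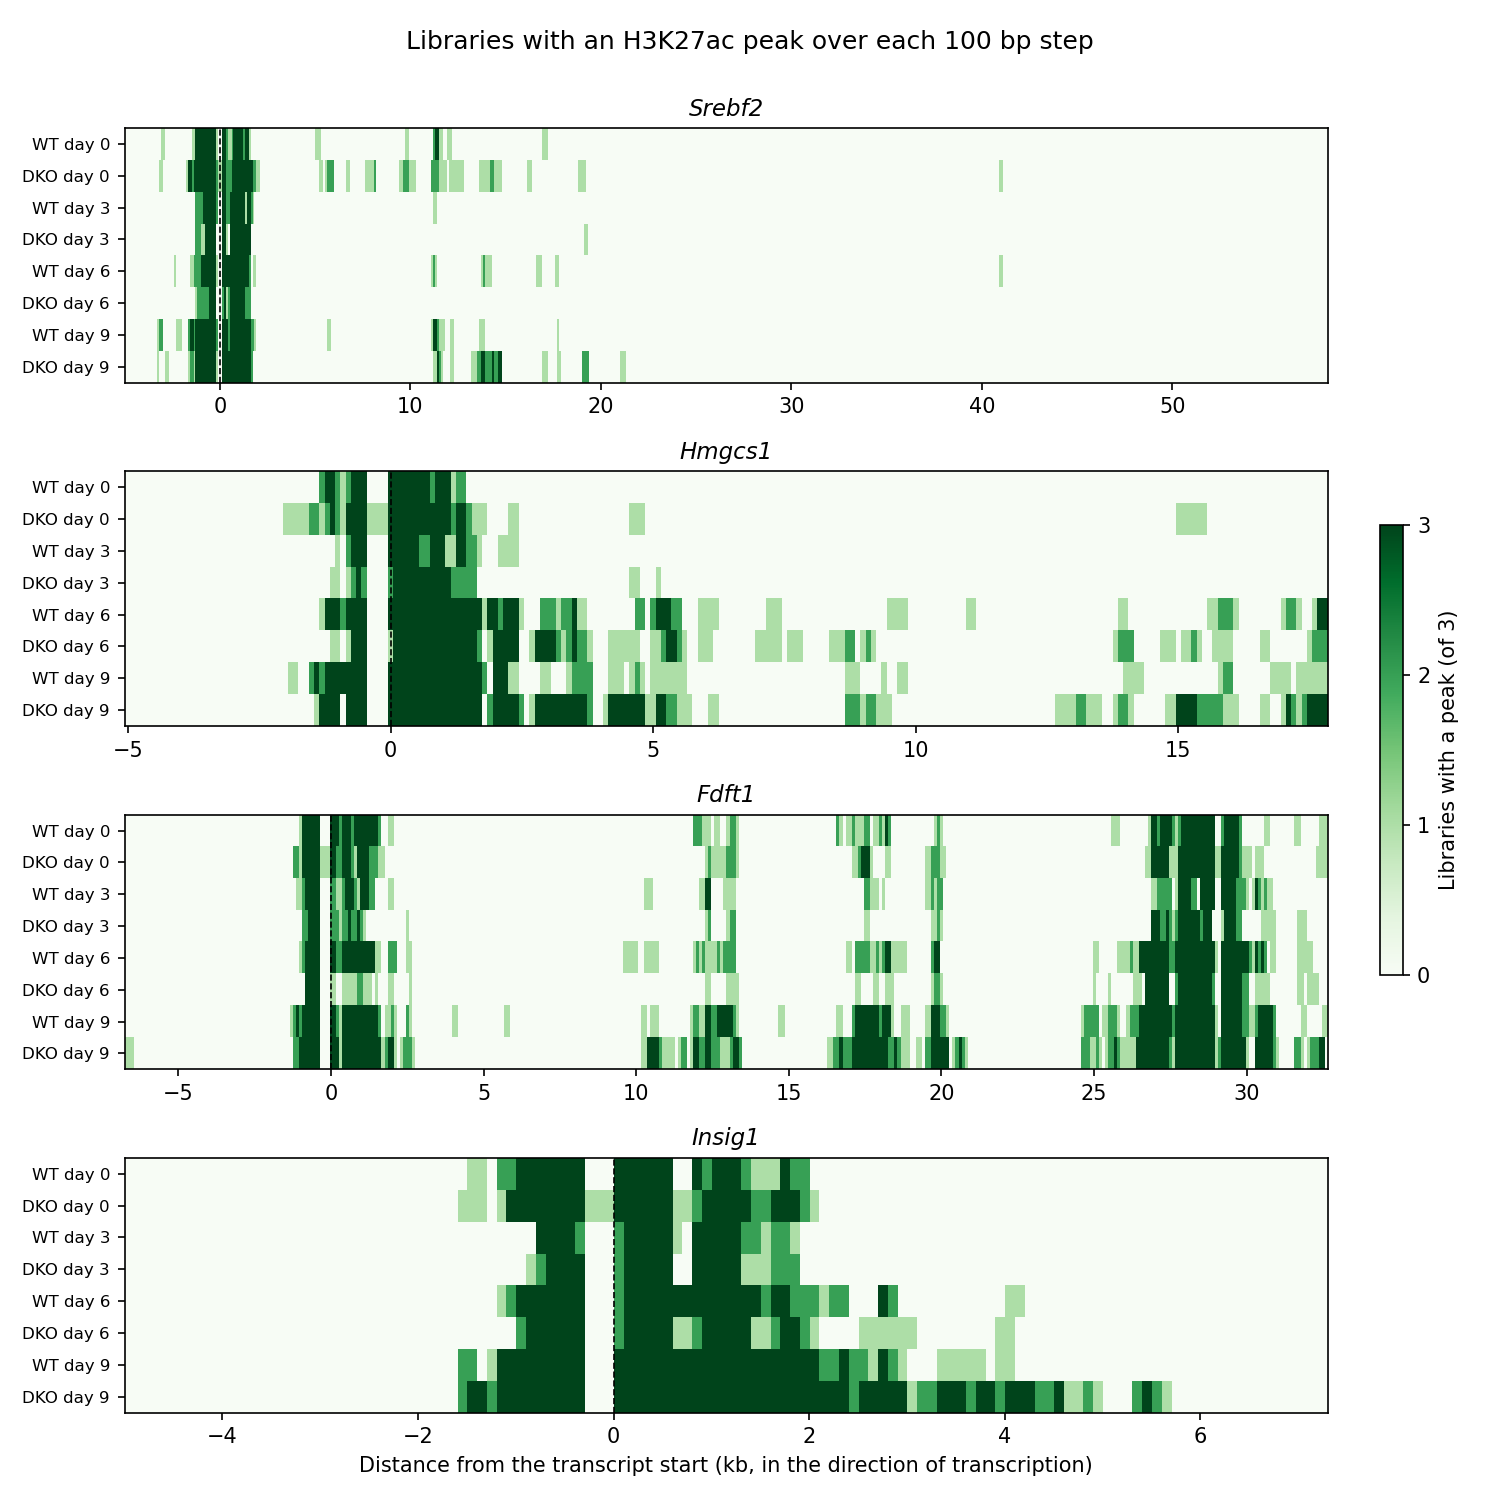
Number of libraries of 3 (shade, 0 to 3) with a peak over each 100 bp step of the windows of Srebf2, Hmgcs1, Fdft1 and Insig1, against the distance from the transcript start (kb, dashed line at 0), a row for each genotype and day. Peaks flank the start in every row, Hmgcs1 has peaks from 2.67 to 3.87 kb in rows of days 6 and 9 and none there at days 0 and 3, and the bottom row (DKO day 9) reaches furthest into Insig1.

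Among these, the introns of Srebf2 and Fdft1 hold the regions called only in DKO at day 9, and an intron of Hmgcs1 holds the one that appeared at day 6 in both genotypes. The 201 bases around the summit of their strongest peak are shown on the strand of the gene, and overlap no exon of a protein-coding transcript.
Srebf2 intronic region, chr15:82166193-82166393, strand +: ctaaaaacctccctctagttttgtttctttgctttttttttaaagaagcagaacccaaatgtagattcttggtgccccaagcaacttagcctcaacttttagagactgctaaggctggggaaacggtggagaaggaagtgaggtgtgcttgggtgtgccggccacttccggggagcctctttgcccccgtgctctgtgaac
Hmgcs1 intronic region, chr13:119693916-119694116, strand +: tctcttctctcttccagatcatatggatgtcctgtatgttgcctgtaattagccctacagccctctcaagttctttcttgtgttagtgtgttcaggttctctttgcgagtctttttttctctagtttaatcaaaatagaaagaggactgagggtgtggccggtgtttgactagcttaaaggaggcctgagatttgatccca
Fdft1 intronic region, chr14:63157114-63157314, strand -: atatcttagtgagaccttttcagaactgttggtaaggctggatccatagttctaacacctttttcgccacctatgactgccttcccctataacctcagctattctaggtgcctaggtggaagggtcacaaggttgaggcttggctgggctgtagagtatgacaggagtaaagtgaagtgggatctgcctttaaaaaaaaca
CCAAT, the nuclear receptor half-site AGGTCA and the C/EBP box TTGCNNAA were searched on both strands and matched in none of the 3, so no base is in capitals. Windows of the same length at all 169358 regions held them in 21.9%, 13.4% and 7.39%. Smaller regions changed with the day elsewhere, in both directions, and their share over all regions was not counted. Those called at day 0 alone included Lss chr10:76542878-76543324 (1 WT and 2 DKO libraries) and Srebf2 chr15:82152220-82152591 (2 WT and 1 DKO). Others were gained. At Lss, a region from 5.33 to 6.08 kb after the start (chr10:76536937-76537683) was called in 0 of 12 libraries of days 0 and 3 and in 6 of 6 of day 9, and at Idi1 a region from 1.34 to 2.04 kb (chr13:8886845-8887544) in 1 of 12 and in 6 of 6.

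The rest of the pathway was read from 4 further lists. Of 16 other cholesterol synthesis enzymes, 5 were higher and 0 lower at day 9 than at day 0 in length under peaks, beside 16.4% and 14.8% of all genes, with a median of 0.245 kb against 0.039 kb over all genes. They were Dhcr7 (1.95 kb), Acat2 (1.89 kb), Pmvk (1.29 kb), Cyp51 (0.86 kb) and Hsd17b7 (0.76 kb), each with exact permutation p = 0.005 and adjusted p = 0.0203, and all 5 were also higher as a share of the library, where the list had 7 higher and 2 lower, beside 22.4% and 21.9% of all genes. Dhcr7 carries out the last step to cholesterol, and Cyp51 removes a methyl group from lanosterol. Of 7 SREBP regulators, Srebf1, the lipogenic sister of Srebf2, rose from 10.9 ± 2.97 to 16.5 ± 2.01 kb (SD, n = 6), and Scap, the escort of SREBP, fell from 6.53 ± 2.14 to 3.00 ± 0.590 kb (both adjusted p = 0.0203, exact permutation), with a median of -0.048 kb over the list. These were 1 of 7 higher and 1 of 7 lower, near the 16.4% and 14.8% of all genes. Both genes kept their direction as a share of the library. The list then had 2 higher and 2 lower, beside 22.4% and 21.9% of all genes.

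Of 7 tested genes of sterol uptake, trafficking and storage, 0 were higher and 1 lower at day 9, Soat1, which esterifies cholesterol, by -3.88 kb, with a median of -1.02 kb, and 1 of 7 is near the 14.8% of all genes. On the share scale 1 was higher and 4 were lower, beside 22.4% and 21.9% of all genes. Of 6 genes of the LXR and efflux list, Abca1, the cholesterol exporter, rose by 23.1 kb and Apoe by 1.75 kb, and Abcg1 and Mylip fell by 3.01 kb and by 2.57 kb (all adjusted p = 0.0203, exact permutation), with a median of -0.455 kb. That is 2 of 6 higher and 2 of 6 lower, beside 16.4% and 14.8% of all genes. On the share scale the same genes were the 2 higher and 2 lower, beside 22.4% and 21.9%. Between genotypes over the 4 days, 0 genes of the 4 lists passed in length under peaks by the exact permutation test, beside 0.0263% of all genes higher and 0.125% lower. At an unadjusted p under 0.05 there were 3, all higher, where 3.95% of all genes were higher and 5.91% lower: Apoe at 1.53 kb (p = 0.00285 by exact permutation, adjusted p = 0.218), Scarb1 at 1.22 kb (adjusted p = 0.314) and Cyp51 at 0.27 kb (adjusted p = 0.478).

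Genes whose length under peaks moved most like the sum of the 8 members, each as a share of the library, were Eci1 (Spearman rho 0.947), Crat (0.932), Heatr5b (0.923), Nabp1 (0.911) and Bckdk (0.907), out of 12544 genes compared over the 24 libraries. Eci1 encodes an enzyme of fatty acid oxidation and Crat the carnitine acetyltransferase. The points share libraries and days, so these are descriptions. Between the members themselves, also as a share of the library, the highest rho was 0.802, for Hmgcs1 and Insig1. It was followed by 0.768 for Fdft1 and Insig1, and the lowest was -0.029, for Sqle and Lss. Eci1 had a mean of 1.04 kb for WT and 1.24 kb for DKO at day 0, and of 3.47 and 4.13 kb at day 9.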

How the data were processed

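H3K27ac was measured in 24 libraries, 3 for each genotype and day, and 16 input libraries were not analysed here. Per the labels and the submitters' processing notes, the authors used bcl2fastq 2.17, cutadapt 1.18, BWA 07.17 and MACS2 2.1.1.20160309 on mm10, and called peaks per library. Which input served as control is not given in the sources used here. The deposited lists give a fold over the local background (a ratio), and −log10 p and −log10 q for each peak, as the authors' caller wrote them. They give no read totals, so depth is known only from summit reads.

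Peaks were joined to protein-coding genes (span with 5 kb upstream). Length under peaks, rank by −log10 q and log2 highest fold were compared by two-sided exact permutation within day or within genotype, with Benjamini-Hochberg adjustment over 15183 genes (a peak in at least 3 libraries) and a threshold of 0.05. Python 3.11.15, numpy 2.4.6, pandas 2.3.3, scipy 1.17.1, numba 0.67.0 and matplotlib 3.10.9 were used. The tests were checked on simulated data.

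The members and lists were chosen with earlier results of these data known. Named genes were the 8 members, the genes of 4 further lists that passed or had the lowest p, and the 5 most alike in pattern. Some genes of the lists are not reported here. The likeness and the shares under library scaling are descriptions or alternatives. Alternatives were a stricter q, the 20000 strongest peaks, 250 bp around summits, 5 kb around the transcript start, lists cut to the shortest, a share of each library, libraries left out and a replicate block.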

Additional observations from a re-analysis of the deposited data

Results flagged for a closer look

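Srebf2 was singled out because a test of the change of its genotype difference in length under peaks with the day passed (exact permutation, adjusted p = 0.037). DKO minus WT was 2.73, -0.28, -1.14 and 0.86 kb over days 0, 3, 6 and 9. Among the members 1 of 8 passed this test, beside 17.1% of all genes, so the flag does not set the members apart. The day 0 value rests largely on DKO day 0 replicate 2, though the call held without that library. The call did not hold as a share of each library, with the strongest peaks alone or with summit windows.

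Fdft1 was singled out because its libraries moved in opposite directions at 2 days: all DKO libraries lay below WT at day 6, by a mean of -3.86 kb, and all lay above at day 9, by 2.84 kb. The test of the change with the day gave an adjusted p = 0.0525 by exact permutation, which misses the threshold. As a share of the library the groups overlapped at day 6. The causes were not tested.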

How the results depend on the processing

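Of 95 alternative values of the counts of members, 50 stayed within 1.5 times, 35 were lower, 8 were higher and 2, both counts of non-overlap, turned direction at a day. The change of the genotype difference with the day (1 member) became 2 at a −log10 q of at least 5, 2 without WT day 3 replicate 3 and 2 without both libraries that stand apart, and 0 with the 20000 strongest peaks, summit windows or the library share. The day 0 to day 3 count (4) became 2 with the stricter q, 2 without WT day 3 replicate 3, 2 without both, 1 as a share and 0 with the strongest peaks or summit windows, and Insig1 turned to 3.33 bp per Mb as a share. The day 0 to day 9 count (3) became 6 without DKO day 0 replicate 2, 6 without both, 1 with summit windows and 0 with the strongest peaks. The genotype count in length (0) became 3 as a share, and that in fold (1) became 0 without either library or both. The 10 gene and day pairs without overlap became 2 with summit windows. They became 6 with the strongest peaks, where day 9 turned from 5 above and 0 below to 0 above and 2 below, and 13 as a share, where day 6 turned from 0 above and 2 below to 6 above and 0 below. The rank count of day 0 to day 9 (2) became 0 with lists cut to the shortest. The pairs without overlap, with 1 replicate number or 1 library left out, ranged from 11 to 19, and with 1 replicate number left out the counts of the change with the day, of day 0 to day 3, of day 0 to day 9 in length and in rank, and of the fold ranged from 0 to 0. Day tests then cannot go below 0.0556, so they say nothing of stability.

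Replicate numbers did not pair the samples: 1 of 12 genotype pairs and 0 of 6 day pairs correlated over 0.1. With a replicate block the day 0 to day 3, day 0 to day 9 (length and rank) and fold counts were 0, and day tests cannot go below 0.0312. The causes of these shifts were not tested. Alternatives on length with the day 3 change, leaving out both libraries, and cutting lists to the shortest were chosen after seeing the data. Summit reads, down to 7, limit Lss most.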

Other observations

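As a share of each library, genes of cholesterol handling outside synthesis also differed between genotypes over the 4 days. Of 7 tested genes of uptake, trafficking and storage, 4 were higher in DKO and 0 lower, beside 9.19% and 5.70% of all genes, with a median of 16.4 bp per Mb against 2.12 over all genes. Among them Npc1, which moves cholesterol out of lysosomes, differed by 27.7 bp per Mb and the HDL receptor gene Scarb1 by 23.3 (both adjusted p = 0.00231, exact permutation). Of 6 genes of LXR and efflux, 3 were higher and 0 lower, beside the same shares: Abca1 by 153, Apoe by 44.7 and Nr1h3, which encodes LXR alpha, by 26.7 bp per Mb (adjusted p of 0.0019, 0.00424 and 0.00489 by exact permutation). Among 7 SREBP regulators, 0 were higher and 1 was lower, beside the same shares. It was Scap, at -21.9 bp per Mb (adjusted p = 0.0199, exact permutation). Among 16 other synthesis enzymes 0 passed. In kb, 0 genes of these lists passed, and the part of list length was not tested.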
